A study of Mus musculus with 2 samples.

Results

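The 37 genes described here encode the steps of glycolysis and the response of cells to low oxygen, and were followed in scRNAseq of the mouse rib callus at 4 dpi. The genes were taken from a list of pathway members: 21 take part in glucose uptake, glycolysis or the handling of lactate and pyruvate, and 16 belong to oxygen sensing or are targets of the hypoxia pathway. All 37 symbols were found among the 31018 symbols of the feature list, and each had at least 1 UMI (unique molecular identifier, a counted RNA molecule) in connective cells of both libraries.

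The study asked how the early callus differs when cells of the *Sox9* lineage cannot receive a Hedgehog signal. The control library came from *Sox9*:CreER;*R26*:tdTomato;*Smo* flox/+ mice and the *Smo* cKO library from *Sox9*:CreER;*R26*:tdTomato;*Smo* flox/flox mice. Both groups were 8 to 12 weeks old, received 3 tamoxifen injections from day -7 to day -5, and had 3 mm of rib resected at day 0. Calluses of 3 animals were pooled for each genotype, so that there is 1 library per genotype, no spread between animals, and no test of genotype. The CreER acts in cells that express *Sox9* when tamoxifen is given, so *Smo*, the Hedgehog signal transducer, is deleted in that lineage and not in the other cells of the library. In connective cells *Smo* was at 19.0 CPM (the UMIs of a gene per 1000000 UMIs of those cells) (control) and 12.3 CPM (*Smo* cKO). Where the counted tags lie relative to the floxed part is not given in the sources used here, so this level is not a check of the deletion.

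The control library held 105367110 UMIs in 10747 barcodes and the *Smo* cKO library 112700220 UMIs in 10512 barcodes, of which 10057 and 9507 cells had at least 200 detected genes and under 10% mitochondrial UMIs. The libraries shared 613 barcodes. Of the 260 shared barcodes that were assigned to a class in both libraries, 234 had the same class in both, and summed levels without the shared barcodes are given beside the results. Cells were assigned to the class with the most detected markers of 8, which left 18.4% of control and 16.9% of *Smo* cKO cells without a class. Connective cells (6701 and 5683) held a median of 7 of their 8 markers, with summed connective markers at 6211 and 5756 CPM, against 333 and 310 CPM in macrophage or monocyte cells (1041 and 1572). Doublets were not removed. A doublet caller marked 2.38% of control but only 0.0803% of *Smo* cKO cells, and so was taken not to have worked.

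Glycolysis splits glucose into pyruvate in the cytosol without using oxygen. Glucose enters through transporters such as *Slc2a1* and is trapped by hexokinases (*Hk1*, *Hk2*), the upper steps spend ATP, and the lower steps from *Tpi1* to *Pkm* return it. *Ldha* then turns pyruvate into lactate, *Slc16a3* exports the lactate, and *Pdk1* holds pyruvate back from the TCA cycle. When oxygen is low, the prolyl hydroxylases encoded by *Egln1* and *Egln3* no longer mark HIF1A for destruction, and HIF1A binds DNA at the letters ACGTG or GCGTG and induces most of these genes. A fresh fracture callus is poorly perfused because its vessels are torn, and it fills with fibroblast-like cells and macrophages that can respond to low oxygen. The calluses here followed a resection, which the paper sets apart from a fracture, and no oxygen level was reported for them.

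The promoters of 8 of the genes with the letters ACGTG are shown because these letters, in capitals here with the flanking bases in lower case, are the core of the element that HIF1A recognizes. Each stretch was read 5′ to 3′ on the strand of the gene from RefSeq, build GRCm38.p6, and CACGT is the same motif read on the opposite strand. *Ldha* (chr7:46845647-46845786, plus strand, 157 to 18 bases upstream of a RefSeq start) holds 5 starts of the motif counted on both strands, because the palindrome CACGTG counts on each. *Pgk1* (chrX:106186938-106186985, plus), *Slc16a3* (chr11:120949028-120949066, plus) and *Bnip3* (chr7:138909597-138909626, minus) hold 2 each. *Slc2a1* (chr4:119108697-119108725, plus), *Hk2* (chr6:82774490-82774518, minus), *Egln3* (chr12:54204087-54204115, minus) and *Ankrd37* (chr8:45999851-45999868, minus) hold 1 in the stretch shown.
Ldha: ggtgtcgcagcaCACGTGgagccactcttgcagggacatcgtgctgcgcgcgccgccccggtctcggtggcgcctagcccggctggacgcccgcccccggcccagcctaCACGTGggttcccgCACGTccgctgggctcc
Pgk1: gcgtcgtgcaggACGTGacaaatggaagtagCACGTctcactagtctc
Slc16a3: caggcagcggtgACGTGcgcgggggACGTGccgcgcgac
Bnip3: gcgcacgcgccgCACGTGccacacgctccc
Slc2a1: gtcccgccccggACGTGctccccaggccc
Hk2: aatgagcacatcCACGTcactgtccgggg
Egln3: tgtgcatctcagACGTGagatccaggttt
Ankrd37: cagtgtttgggtACGTGa

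Of the 37 genes, 33 matched a RefSeq promoter, and *Slc2a3*, *Bnip3l*, *Ero1l* and *Ndrg1* have no entry. In the 250 bases before the start of any of its promoters, 18 of the 33 (54.5%) hold ACGTG on either strand, beside 18.5% of all 27025 symbols. GCGTG was found for 19 (57.6%), beside 30.9% of all symbols, and at least 1 of both motifs for 28 (84.8%), beside 41.5%. Among 12 matched genes of the TCA cycle and respiratory chain, 4 (33.3%) hold ACGTG, 8 (66.7%) GCGTG and 8 (66.7%) at least 1 of both motifs. Counted per promoter, the order of the list and these genes was the opposite for ACGTG and for at least 1 of both motifs. For GCGTG the list was lower in both counts. ACGTG was in 44% of the 50 promoters of the list and 52.9% of the 17 promoters of the TCA cycle and respiration genes. GCGTG was in 46% and 64.7%, and at least 1 of both motifs in 74% and 76.5%. Frequent motifs were thus not particular to the list. A match is a description of the letters and no evidence of binding.

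RNA of the glycolysis genes was counted in every cell class, and its share of the UMIs differed between classes. Summed over the 21 genes, the level in the control and *Smo* cKO libraries was 5092 and 6341 CPM in connective cells, 4027 and 4583 CPM in macrophage or monocyte cells, 5744 and 6715 CPM in osteoclasts (133 and 73 cells), 4914 and 5721 CPM in muscle cells (104 and 214 cells) and 4556 and 4902 CPM in neutrophils (100 and 133 cells). Classes with under 50 gated cells in a library were taken from graph clusters made without the 37 genes, which gave 4448 and 4304 CPM in endothelial cells (79 and 86 cells). Between connective and macrophage or monocyte cells the order of this sum turned in cells of closer depth, as given below. The 16 hypoxia genes followed another order: connective cells were highest, at 2569 and 2857 CPM, and muscle cells were lowest of the classes shown in the control, at 986 CPM, and second lowest in the *Smo* cKO library, at 1140 CPM beside 1129 CPM in neutrophils. In these gated muscle cells 4 of the 16 genes reached 50 CPM in both libraries, beside 7 in muscle graph clusters (401 and 689 cells). The intervals drawn in the plot of summed levels, and all intervals given here, are exact and cover counting error only. Pairs of values below are control first and *Smo* cKO second.

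**Figure D1:**
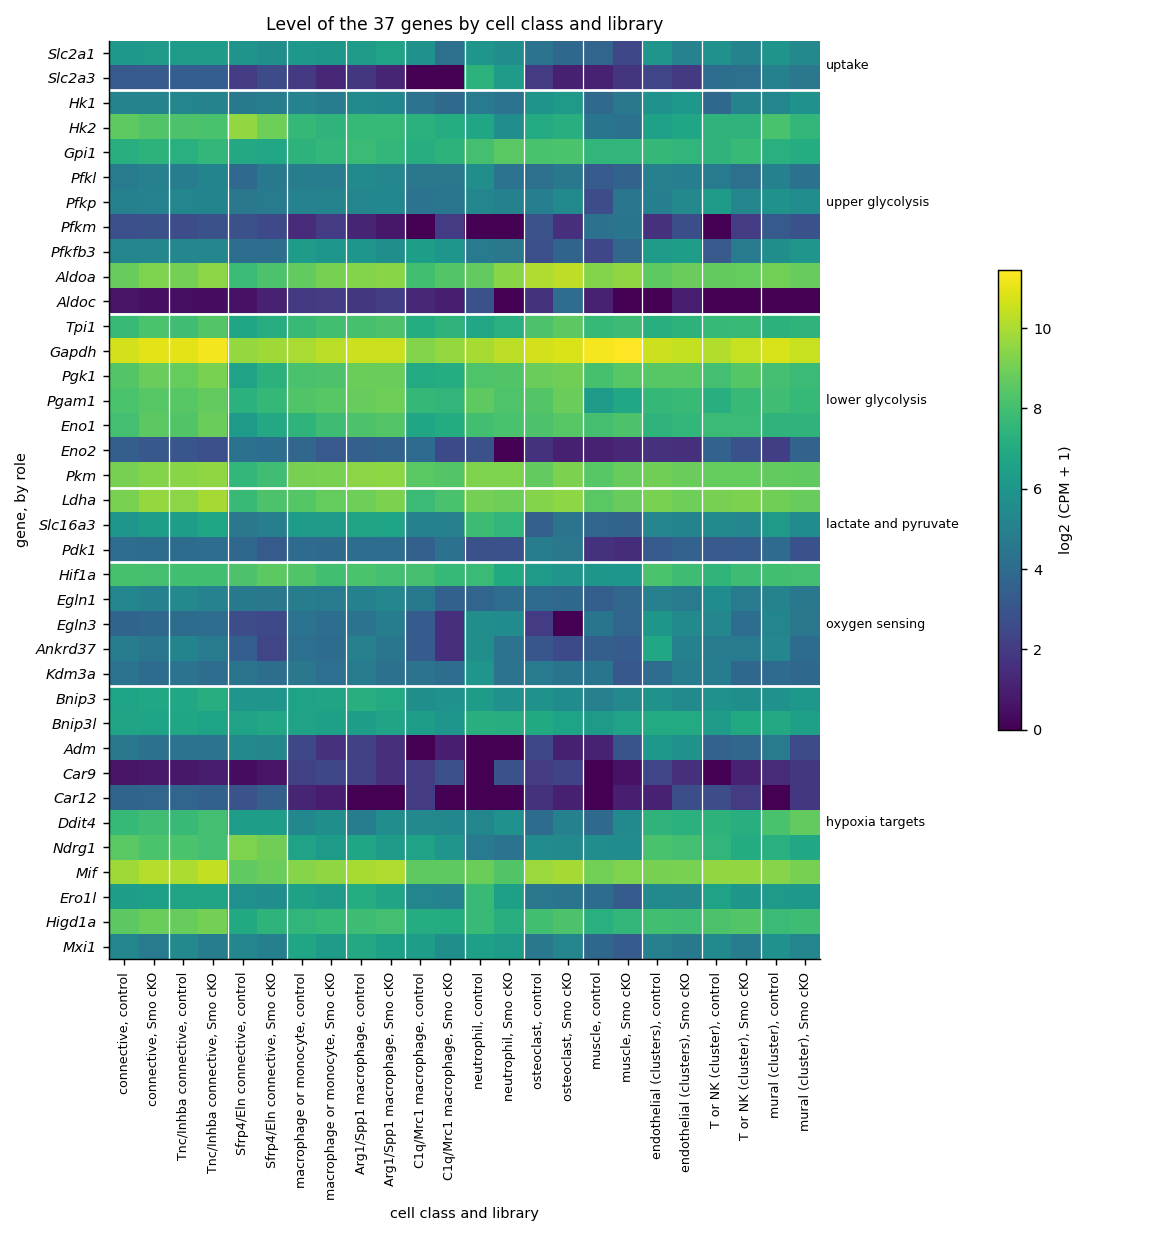
Level of each of the 37 genes as log2 (CPM + 1) by cell class (columns, control and *Smo* cKO side by side) and gene (rows, grouped by role), where the darkest color is 0. Along their rows, *Hk2* and *Ndrg1* are brightest in Sfrp4/Eln connective cells, *Slc2a3* and *Slc16a3* in neutrophils, and *Aldoa* in osteoclasts.

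**Figure D2:**
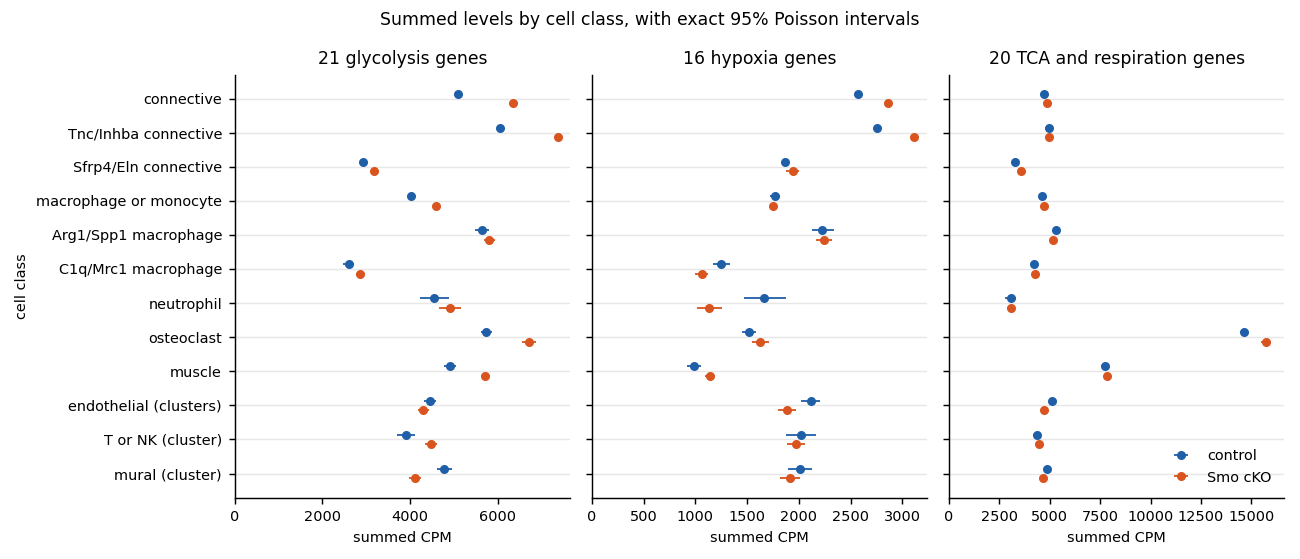
Summed CPM (x axis) of 21 glycolysis genes, 16 hypoxia genes and 20 TCA cycle and respiration genes in each cell class (y axis), with control in blue, *Smo* cKO in orange and bars as exact 95% Poisson intervals of the count. Sfrp4/Eln connective cells and C1q/Mrc1 macrophages have the lowest glycolysis sums, and osteoclasts the highest respiration sum, at 14627 and 15728 CPM.

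Among the glucose transporters, *Slc2a1* was at 67.8 and 71.3 CPM in connective cells and 67.4 and 65.1 CPM in macrophage or monocyte cells, so that these classes were not apart beyond counting error in either library. *Slc2a3*, the high-affinity transporter, was highest in neutrophils, at 166 and 76.8 CPM, followed by mural cells at 32.1 and 22.0 CPM, and it was at 8.40 and 8.49 CPM in connective cells. *Slc16a3*, the lactate exporter, had its highest level in the same class, at 228 and 182 CPM in neutrophils beside 63.2 and 84.7 CPM in connective cells. *Ero1l*, an oxidase of the endoplasmic reticulum, was at 215 CPM in control neutrophils, above every other class, but at 89.6 CPM in *Smo* cKO neutrophils beside 89.1 CPM in connective cells. Of 22 genes of the list at 50 CPM or more in neutrophils or macrophages, *Slc2a3*, *Gpi1*, *Bnip3l* and *Slc16a3* were at least 1.5-fold higher in neutrophils in both libraries (background 11.8% of all genes) and *Pfkfb3*, *Hk2*, *Tpi1* and *Ndrg1* at least 1.5-fold lower (42.7%). A gene was tested where 1 of the compared groups reached 50 CPM, so a gene under 50 CPM in the lower group had to differ to pass. Such genes were *Slc2a3* on the higher side, and *Pfkfb3*, *Ndrg1* and, in the *Smo* cKO library, *Hk2* on the lower side, and 17 of the 22 reached 50 CPM in both classes of both libraries. The 8 neutrophil markers alone made up 205766 and 257281 CPM of these cells, and CPM values of other genes in neutrophils are shares of what these markers left.

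The upper steps showed isoforms with different class patterns. *Hk2* was highest in connective cells, at 391 and 318 CPM, followed by mural cells at 283 and 190 CPM and macrophage or monocyte cells at 196 and 173 CPM, and was lowest in muscle cells at 20.9 and 18.9 CPM. Its intervals in connective and mural cells were apart in both libraries. *Hk1*, the housekeeping hexokinase, was instead highest in osteoclasts (59.5 and 70.1 CPM) and endothelial cells (57.3 and 68.5 CPM), which were not apart from each other. *Pfkm*, the muscle phosphofructokinase, was highest in muscle cells, at 18.7 and 20.7 CPM, against 5.89 and 6.15 CPM in connective cells, whereas *Pfkl* was at 25.6 and 30.4 CPM and *Pfkp* at 32.0 and 32.6 CPM in connective cells. Its interval in muscle cells was apart from that of the next class, mural cells, in the *Smo* cKO library but not in the control library. *Pfkfb3*, which makes the activator of phosphofructokinase, was at 77.7 and 63.8 CPM in macrophage or monocyte cells and 35.8 and 38.3 CPM in connective cells. *Aldoa* was highest in osteoclasts, at 1086 and 1277 CPM against 442 and 599 CPM in connective cells, and *Gpi1* was at 281 and 296 CPM in osteoclasts and 141 and 169 CPM in connective cells. *Aldoc*, the brain aldolase, had only 45 and 36 UMIs over all connective cells.

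Of the lower steps, *Gapdh* was highest in muscle cells, at 2466 and 2778 CPM, against 1615 and 1999 CPM in connective cells and 1027 and 1233 CPM in macrophage or monocyte cells. *Tpi1* was highest in osteoclasts, at 305 and 381 CPM, above the 209 and 294 CPM of connective cells. These consecutive steps thus had different highest classes in both libraries. *Pgam1* was lowest in muscle cells, at 80.2 and 111 CPM, against 294 and 358 CPM in connective cells. *Eno1* was at 255 and 375 CPM in connective cells and 171 and 235 CPM in macrophage or monocyte cells. *Eno2*, the neuronal enolase, was at 9.88 and 7.53 CPM in connective cells and 12.7 and 8.16 CPM in macrophage or monocyte cells. Neither enolase differed at least 1.5-fold between these classes in both libraries. *Pkm* varied little among 3 classes, at 546 and 645 CPM in connective, 542 and 557 CPM in macrophage or monocyte and 591 and 595 CPM in neutrophil cells. *Ldha* was at 571 and 795 CPM in connective cells and 343 and 424 CPM in macrophage or monocyte cells, and *Pdk1* was at 15.8 and 15.3 CPM in connective cells.

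Of the oxygen-sensing genes, *Hif1a* was at 272 and 270 CPM in connective cells, 318 and 248 CPM in macrophage or monocyte cells and 65.9 and 63.0 CPM in muscle cells. *Egln1* was at 36.8 and 32.1 CPM in connective cells. *Egln3*, a prolyl hydroxylase that is itself a HIF target, was at 11.9 and 13.1 CPM in connective cells and 64.7 and 42.2 CPM in endothelial cells. The highest class for *Egln3* was endothelial cells in the control and neutrophils in the *Smo* cKO library, with intervals that overlapped. *Ankrd37*, an ankyrin repeat protein that the list placed in the oxygen-sensing group, was at 117 and 31.9 CPM in endothelial cells, a wide gap between libraries. It was at 26.7 and 21.2 CPM in connective cells. *Kdm3a*, a histone demethylase, was at 19.7 and 15.7 CPM in connective cells. *Adm*, the vasodilator adrenomedullin, belongs to the hypoxia targets of the list and not to this group. It was highest in endothelial cells in both libraries, at 66.8 and 58.2 CPM against 22.8 and 19.1 CPM in connective cells.

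Among the hypoxia targets, *Mif*, a cytokine, was at 904 and 1144 CPM in connective cells and 649 and 752 CPM in macrophage or monocyte cells. *Ndrg1*, a stress-response gene, was at 369 and 293 CPM in connective cells against 96.6 and 74.0 CPM in macrophage or monocyte cells. *Higd1a*, a mitochondrial protein, was at 371 and 462 CPM in connective cells against 186 and 200.5 CPM in macrophage or monocyte cells. Over all cells these 3 targets were higher in connective than in macrophage or monocyte cells of both libraries. For *Mif* the order depended on depth. It was at 566 and 723 CPM in connective cells of 5000 to 10000 UMIs. Macrophage or monocyte cells of at least 5000 UMIs had 995 and 966 CPM. Between the same cells *Higd1a* was at 192 and 243 against 241 and 213 CPM, and *Ndrg1* at 536 and 402 against 73.6 and 51.4 CPM. Connective cells under 5000 UMIs had *Mif* at 572 and 666 CPM, and macrophage or monocyte cells of 2000 to 5000 at 553 and 622 CPM. *Ddit4*, an inhibitor of mTORC1, was highest in mural cells, at 282 and 416 CPM (55 and 60 cells), followed by connective cells at 203 and 243 CPM. The mitophagy receptors *Bnip3* and *Bnip3l* were at 97.9 and 117 CPM and at 101 and 99.0 CPM in connective cells. Neither receptor differed 1.5-fold between connective and macrophage or monocyte cells. *Mxi1*, a MYC antagonist, was at 103 and 76.6 CPM in macrophage or monocyte cells and 37.1 and 26.0 CPM in connective cells. Of the carbonic anhydrases, *Car12* was highest in connective cells, at 11.9 and 12.4 CPM. *Car9*, a common marker of hypoxia, was at 0.527 and 0.737 CPM there.

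Set against macrophage or monocyte cells, connective cells had 6 genes of the list at least 1.5-fold higher in both libraries and 2 at least 1.5-fold lower, of 22 that reached 50 CPM. These were *Hk2*, *Gapdh*, *Ldha*, *Ddit4*, *Higd1a* and *Ndrg1* on the higher side (background 30.9% of all genes) and *Pfkfb3* and *Mxi1* on the lower side (23.5%). Both of the lower genes were under 50 CPM in connective cells, as was *Ddit4* in control macrophage or monocyte cells, so these passed only through the class where they were high. The sum over the 37 genes was 0.40 higher on the log2 scale in control connective cells. With the study's limit of 200 to 2000 detected genes per cell it was 0.14 lower (log2 -0.14). Median depth was 11251 and 13905 UMIs in connective and 2714 and 3419.5 in macrophage or monocyte cells. Connective cells of 5000 to 10000 UMIs had *Gapdh* at 995 and 1208 CPM and *Ldha* at 298 and 423 CPM. Macrophage or monocyte cells of at least 5000 UMIs had 1493 and 1461 CPM and 499 and 512 CPM. *Hk2*, *Ddit4* and *Ndrg1* stayed higher in connective cells. At under 5000 against 2000 to 5000 UMIs *Ldha* was at 318 and 464 against 300 and 376 CPM. Between these shallower cells the 21 glycolysis genes summed to 3493 and 4093 against 3672 and 4302 CPM. At 5000 to 10000 against at least 5000 UMIs they summed to 3402 and 3985 against 5103 and 5031 CPM. In both pairs of bins the glycolysis sum was thus higher in macrophage or monocyte cells, unlike over all cells. Muscle cells had none of the 20 genes tested at least 1.5-fold above connective cells in both libraries (background 17.1%) and 12 at least 1.5-fold below (32.7%), with *Hk2*, *Ndrg1*, *Ddit4* and *Slc16a3* among them. Of the 12, 7 were under 50 CPM in muscle cells of at least 1 library and passed through connective cells, these 4 included, and 5 (*Ldha*, *Mif*, *Higd1a*, *Hif1a* and *Pgam1*) reached 50 CPM in both classes. Median depth was 7260.5 and 8678 UMIs in muscle cells. Muscle graph clusters (401 and 689 cells) were not compared with connective cells. They had 17 of the 37 genes at 50 CPM or more in both libraries, beside 13 in the gated muscle cells. Osteoclasts had 5 of 22 above macrophage or monocyte cells (*Hk1*, *Gpi1*, *Aldoa*, *Pgk1* and *Ldha*, background 24.2%) and 8 below, among them *Hif1a* and *Slc2a1* (22.1%). Here *Hk1* and 7 of the 8 lower genes, all but *Hif1a*, were under 50 CPM in the lower class of at least 1 library. Median depth was 9574 and 11830 UMIs in osteoclasts. Beside macrophage or monocyte cells of at least 5000 UMIs, osteoclast *Pgk1* was at 456 and 493 against 379 and 352 CPM. *Ldha* was at 636 and 729 against 499 and 512 CPM, and *Gpi1* at 281 and 296 against 208 and 196 CPM. In the control these genes were then under 1.5-fold apart, whereas *Hk1* and *Aldoa* stayed past 1.5-fold in both libraries. The 8 lower genes were not compared in this way. In endothelial clusters *Pfkfb3*, *Adm* and *Hk1* were at least 1.5-fold above connective clusters in both libraries (background 16.9%) and *Hk2*, *Bnip3*, *Mif*, *Ero1l*, *Slc16a3* and *Pgam1* below (14.6%), of 23 tested. All 3 of the higher genes were under 50 CPM in connective clusters, and *Bnip3*, *Ero1l* and *Slc16a3* were under it in endothelial clusters of at least 1 library, so these passed through the class where they were high.

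Within connective cells, the genes were compared between a subclass where the *Tnc* and *Inhba* markers led and a subclass where *Sfrp4* and *Eln* led. These held 2313 control and 2601 *Smo* cKO cells, and 849 and 262 cells. At least 3 of the 6 Tnc/Inhba markers were in 6079 and 5383 of the 6701 and 5683 connective cells. At least 3 of the 6 Sfrp4/Eln markers were in 4635 and 3801. Most connective cells thus held markers of both lists, and the subclasses were not shown to be separate populations. *Pgk1* (ENSMUSG00000062070, GRCm38 chrX:106187100-106203699), a kinase that returns ATP, was at 426 and 570 CPM in Tnc/Inhba cells and 96.6 and 160 CPM in Sfrp4/Eln cells, a difference of 4.41-fold and 3.56-fold. *Eno1*, the enolase of most tissues (ENSMUSG00000063524, chr4:150236721-150248879), differed 4.39-fold and 3.85-fold, at 322 and 459 CPM against 73.3 and 119 CPM. Both libraries thus gave the same order for these genes, with counting intervals far apart.

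*Ldha* was at 704 and 940 CPM in Tnc/Inhba cells against 206 and 302 CPM in Sfrp4/Eln cells, and *Slc16a3* at 85.1 and 105 CPM against 22.5 and 28.9 CPM. *Pkm*, *Higd1a* and *Mif* also ran higher in Tnc/Inhba cells, by 3.48-fold, 3.62-fold and 2.66-fold in the control. The order was the opposite for *Hk2* (ENSMUSG00000000628, chr6:82725025-82774454), which was at 298 and 283 CPM in Tnc/Inhba cells and 763 and 486 CPM in Sfrp4/Eln cells. *Ndrg1* (ENSMUSG00000005125, chr15:66929318-66969640) went with it, at 289 and 262 CPM against 606 and 491 CPM. *Adm* (19.2 and 19.7 CPM against 40.7 and 37.9 CPM) and *Eno2* (7.41 and 5.97 CPM against 18.2 and 16.8 CPM) were below 50 CPM and had the same order. Between these subclasses *Hk2*, which starts glycolysis, and the 6 lower-step genes at 50 CPM or more were thus in opposite order.

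In cells thinned to 1000 UMIs, *Hk2* was detected in 23.5% and 23.5% of Tnc/Inhba cells and 49.9% and 35.4% of Sfrp4/Eln cells, and *Pgk1* in 32.7% and 37.8% against 10.0% and 14.2%. The unthinned shares were 87.4% and 86.7% against 90.8% and 77.5% for *Hk2*, and 92.0% and 93.9% against 45.1% and 56.9% for *Pgk1*.

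Over the 37 genes, 27 were higher in Tnc/Inhba cells in both libraries and 7 lower in both. At 50 CPM or more, 20 were tested, of which 14 were at least 1.5-fold higher in both libraries (background 27.9%) and 2, *Hk2* and *Ndrg1*, at least 1.5-fold lower (14.9%). The median log2 difference of the 20 was 1.24 and 1.23, beside 0.37 and 0.23 over all genes. *Slc16a3* was under 50 CPM in Sfrp4/Eln cells of both libraries and *Ero1l* in those of the *Smo* cKO library, so these passed the filter through the subclass where they were high. The median over all 37 genes was 0.92 and 0.89. All 6 lower-glycolysis genes tested were among the 14, as were *Ldha*, *Slc16a3*, *Aldoa*, *Bnip3*, *Ddit4*, *Mif*, *Ero1l* and *Higd1a*. The TCA cycle and respiration genes were also higher in Tnc/Inhba cells, for 9 of 14 tested, and their sum was 4963 and 4934 CPM against 3266 and 3559 CPM.

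The subclasses differed in depth, with medians of 15061 and 16205 UMIs per cell for Tnc/Inhba and 7163 and 6854 for Sfrp4/Eln cells. In cells of 5000 to 10000 UMIs, 12 of 20 genes were still at least 1.5-fold higher in Tnc/Inhba cells in both libraries (background 18.3%) and *Hk2* alone was lower (9.71%). In cells of 10000 to 20000 UMIs the counts were 14 (19.2%) and 1, again *Hk2* (11.8%). *Slc16a3* in both bins and *Ero1l* in the deeper one were under 50 CPM in Sfrp4/Eln cells of at least 1 library. In that bin *Hk2* was at 295 and 280 CPM in Tnc/Inhba cells against 728 and 481 CPM in Sfrp4/Eln cells, and *Pgk1* at 399 and 508 CPM against 113 and 185 CPM. Between the graph clusters led by *Aldh1a3*, *Inhba* and *Tnc* and by *Eln* and *Sfrp4*, 12 of 20 genes were at least 1.5-fold higher in the former (background 22.4%), and *Hk2* and *Ndrg1* were lower (14.1%). *Slc16a3* was under 50 CPM in the latter cluster of the control. The cluster led by *Gzme* and *Gzmd*, which also had *Tnc* and *Inhba* among its leading genes, was not compared in this way. Depth bins and clusters were added after the data were seen.

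**Figure D3:**
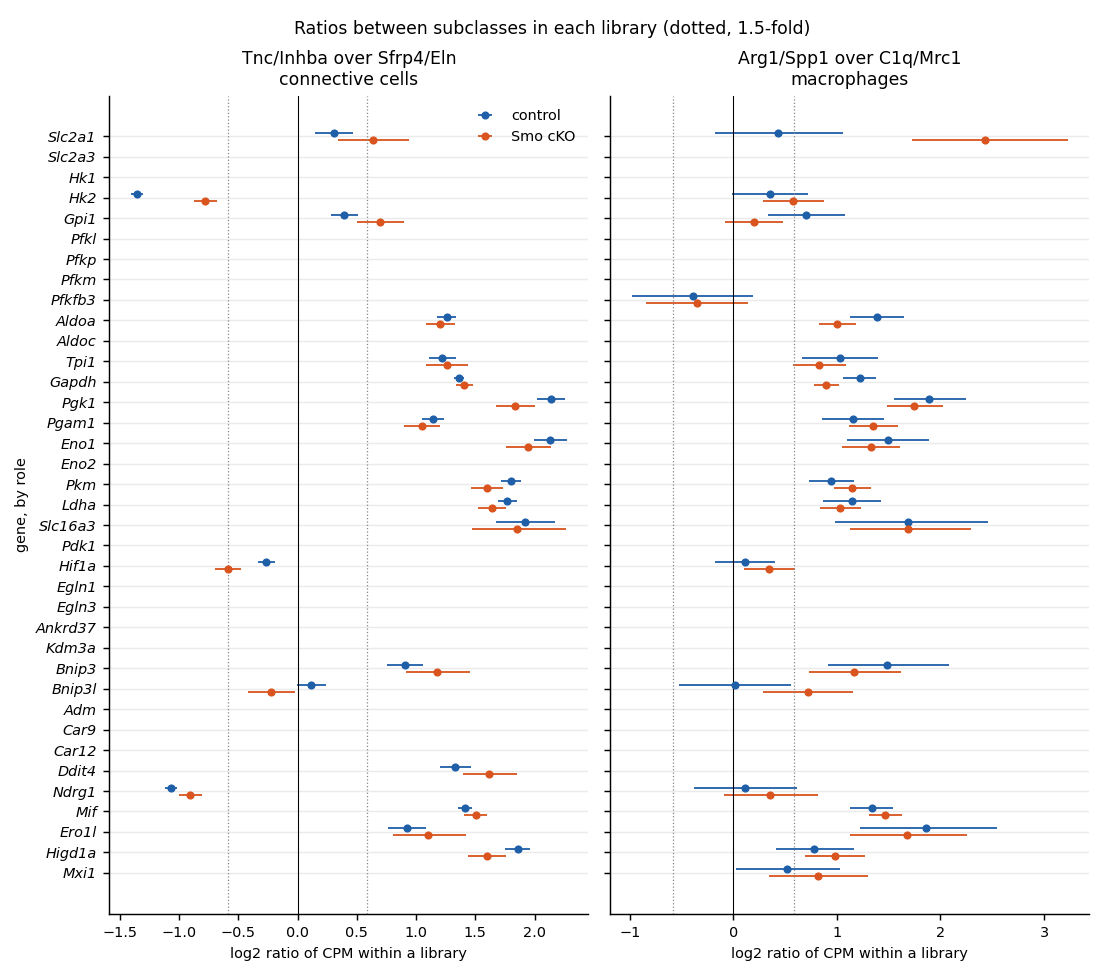
Log2 ratio of CPM (x axis) between 2 subclasses within the control (blue) and *Smo* cKO (orange) library for each gene (y axis) at 50 CPM or more, with bars as 95% counting intervals and dotted lines at 1.5-fold. *Hk2* and *Ndrg1* lie left of 0 in the connective panel, and the lower-glycolysis genes tested lie right of 0 in both panels.

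A like split was seen among macrophages, again between cells where 1 marker list led. At least 3 of the 6 Arg1/Spp1 markers were in 450 and 926 macrophage or monocyte cells. At least 3 of the 6 C1q/Mrc1 markers were in 509 and 799. Cells with the markers *Arg1* and *Spp1* (177 and 333 cells) held 5644 and 5808 CPM of the 21 glycolysis genes, against 2599 and 2867 CPM in cells with *C1qa* and *Mrc1* (246 and 292 cells). *Pgk1* was at 473 and 459 CPM against 127 and 137 CPM, and *Slc16a3* at 101 and 97.5 CPM against 31.5 and 30.3 CPM. *Ero1l* was at 136 and 103 CPM against 37.5 and 32.2 CPM, a 3.62-fold and 3.19-fold difference. Each of these genes was higher in the Arg1/Spp1 subset of both libraries.

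Of 21 genes tested at 50 CPM or more, 13 were at least 1.5-fold higher in Arg1/Spp1 cells in both libraries (background 11.7%) and none was lower (13.5%), with medians of 1.03 and 1.00 on the log2 scale beside 0.04 and 0.10 over all genes. *Slc16a3* and *Ero1l* were among the 13 but under 50 CPM in C1q/Mrc1 cells, so they passed through the subset where they were high, and the other 11 reached 50 CPM in both subsets of both libraries. Over all 37 genes, 28 were higher in both libraries and 1 was lower in both, with medians of 0.93 and 0.99. *Hk2* did not show the reversal seen in connective cells, at 203 and 203 CPM in Arg1/Spp1 cells against 159 and 137 CPM. *Hif1a* itself was at 291 and 256 CPM against 270 and 201 CPM. *Pfkfb3*, at 62.8 and 50.4 CPM against 82.5 and 64.4 CPM, was the gene with the lower value in Arg1/Spp1 cells of both libraries, within counting error. *Slc2a1* was at 76.9 and 95 CPM against 57.0 and 17.6 CPM, with overlapping intervals in the control and intervals apart in the *Smo* cKO library, and the difference between libraries was not tested. In cells of 2000 to 5000 UMIs, 17 of 22 genes were at least 1.5-fold higher in the Arg1/Spp1 subset (background 7.66%) and none lower (9.83%). Of the 17, 12 reached 50 CPM in both subsets and libraries, whereas *Slc2a1*, *Pfkl*, *Ero1l*, *Slc16a3* and, in the control, *Bnip3* were under it in C1q/Mrc1 cells. Between the graph clusters led by *Arg1* and by *Ccl8* and *Apoe*, 16 of 21 were higher in the former (12.8%) and none lower (11.4%), and 5 of the 16 were under 50 CPM in the latter cluster of at least 1 library. TCA cycle and respiration genes were at least 1.5-fold higher for 2 of 15 tested, and their sum was 5328 and 5145 CPM against 4213 and 4281 CPM.

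Between genotypes, RNA of these genes made up a larger share of connective UMIs in the *Smo* cKO library, by a small margin. The sum over the 37 genes was 7661 and 9198 CPM, and the log2 ratio of *Smo* cKO over control was 0.26 (95% counting interval 0.26 to 0.27). Without the shared barcodes it was 0.25. The lactate and pyruvate genes had the highest ratio of the 6 role groups, at 650 and 895 CPM (log2 0.46), followed by lower glycolysis at 3257 and 4138 CPM (0.35). Upper glycolysis was at 1109 and 1228 CPM, the hypoxia targets at 2202 and 2505 CPM, glucose uptake at 76.2 and 79.8 CPM and oxygen sensing at 367 and 352 CPM. The 20 TCA cycle and respiration genes were at 4697 and 4843 CPM, a log2 ratio of 0.04. Of the 13 of them at 50 CPM or more, 11 were higher in the *Smo* cKO library. Their median log2 ratio was 0.19, beside 0.27 for the 20 listed genes at that level. Summed markers of muscle in connective cells were at 65.4 and 116 CPM and those of macrophages at 57.5 and 61.0 CPM, with none of the 8 markers of each at 0, and their part in the ratio was not tested.

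None of the 20 genes at 50 CPM or more in connective cells, which reached that level in both libraries, was 1.5-fold higher (background 2.02% of all genes) or 1.5-fold lower (1.09%) in the *Smo* cKO library. At a fold of 1.25, chosen after the values were seen, 7 were higher, namely *Pgk1*, *Eno1*, *Tpi1*, *Ldha*, *Aldoa*, *Mif* and *Slc16a3* (background 8.49%), and *Ndrg1* was lower (4.4%). The median log2 ratio of the 20 genes was 0.27, beside 0.06 over all 2568 genes tested. Over all 37 genes, 24 were above 0 and 13 below, with a median of 0.08. *Eno1* had a log2 ratio of 0.55, *Tpi1* 0.49, *Pgk1* 0.49, *Ldha* 0.48 and *Aldoa* 0.44, whereas *Hk2* had -0.30, *Ndrg1* -0.33, *Ankrd37* -0.34, *Kdm3a* -0.33, *Eno2* -0.39 and *Mxi1* -0.51. *Slc2a1* was at 0.07, *Gapdh* at 0.31, *Mif* at 0.34 and *Hif1a* at -0.01.

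**Figure D4:**
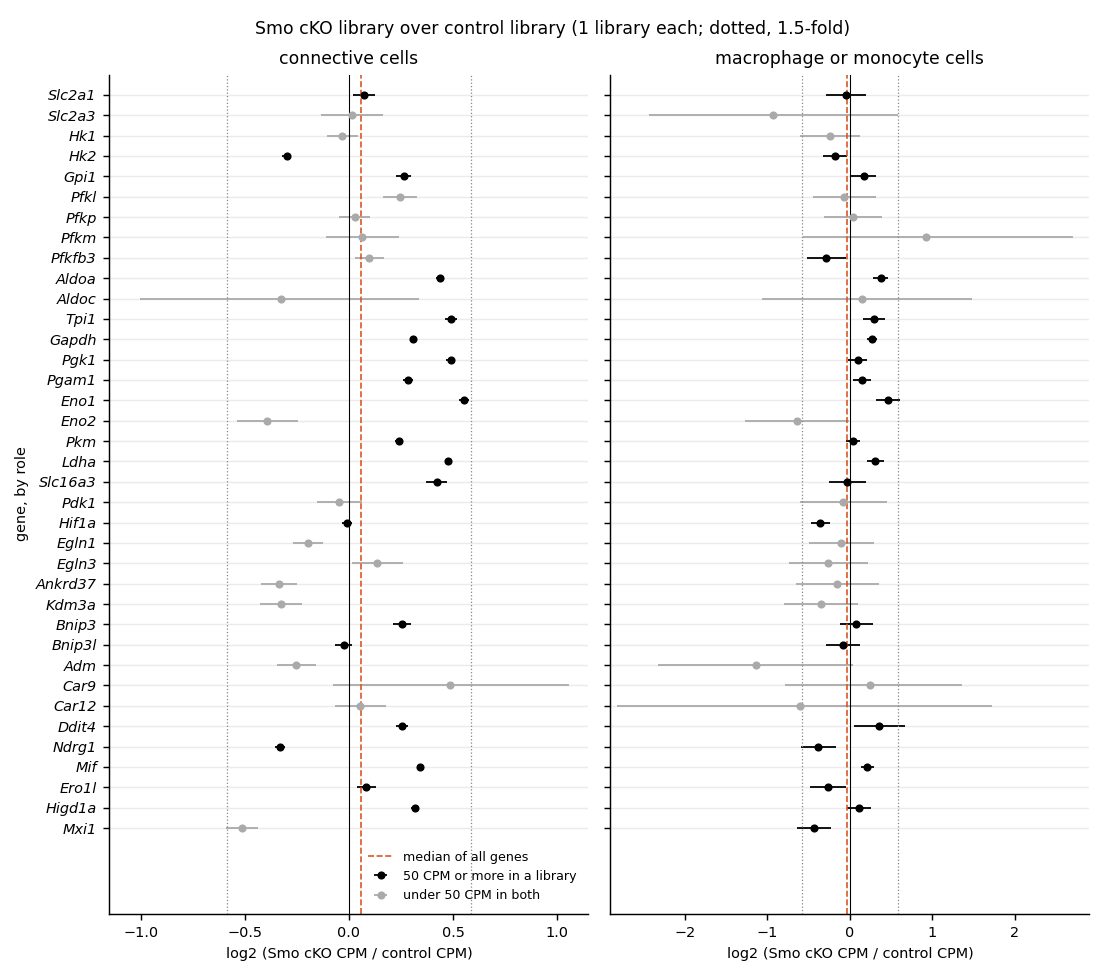
Log2 of *Smo* cKO over control CPM (x axis, different ranges in each panel) for each gene (y axis) in connective and in macrophage or monocyte cells, with bars as 95% counting intervals, dotted lines at 1.5-fold and the median of all genes dashed in orange. Genes in gray were under 50 CPM in both libraries. In connective cells *Eno1*, at 0.55, lies just inside 1.5-fold and *Hk2* and *Ndrg1* lie below 0.

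For *Ldha*, *Pgk1*, *Hk2* and *Ndrg1* the share of connective cells with a UMI went the same way after thinning. Thinning evens the count of UMIs but keeps the same cells, of median depth 11251 and 13905 UMIs. It is thus another form of the CPM comparison and not one of cells of like depth. Each cell was thinned to 1000 UMIs, which left 6510 control and 5597 *Smo* cKO connective cells, and *Ldha* was then detected in 35.1% and 44.7% of cells (86.6% and 92.7% without thinning). *Pgk1* was detected in 23.4% and 29.7% (78.3% and 86.7%), *Hk2* in 30.6% and 25.5% (85.2% and 82.6%), and *Ndrg1* in 31.4% and 24.9% (84.7% and 81.3%). In macrophage or monocyte cells thinned alike *Ndrg1* was detected in 8.98% and 7.70% and *Hk2* in 17.1% and 17.1%. None of the classes compared was free of *Ldha*, *Pgk1*, *Hk2* or *Ndrg1*, so the share that free RNA gives was not measured. Summed connective markers, at 6211 and 5756 CPM in connective cells, were at 357 and 328 CPM in muscle cells and 369 and 358 CPM in neutrophils. The part of free RNA in low levels of the listed genes in such classes was not tested.

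The level of these genes also moved with the depth of the cell. In control connective cells the 21 glycolysis genes summed to 3493 CPM under 5000 UMIs, 3402 CPM at 5000 to 10000, 5078 CPM at 10000 to 20000 and 5992 CPM above, and in *Smo* cKO cells to 4093, 3985, 5948 and 7182 CPM. The median depth of connective cells was 11251 and 13905 UMIs. From the shallowest to the deepest bin, the log2 ratio of the sum over all listed genes was 0.11, 0.15, 0.19 and 0.23. Each was below the 0.26 of all connective cells together, and the part of depth in that ratio was not tested. The median log2 ratio over all genes tested was 0.07, 0.13, 0.05 and 0.01 in these bins. The glycolysis sum was higher in *Smo* cKO cells of each bin, by 0.23, 0.23, 0.23 and 0.26 on the log2 scale. Its direction thus held in cells of like depth. The 16 hypoxia genes differed from this: their sum was lower in *Smo* cKO cells under 5000 UMIs, at 2230 and 2086 CPM (log2 -0.10, interval -0.16 to -0.03), and the log2 ratio was 0.01, 0.11 and 0.15 in the deeper bins. The TCA cycle and respiration genes had log2 ratios of 0.15 and 0.13 in the 2 shallower bins and -0.01 and -0.0012 in the 2 deeper ones. *Hk2* ran the other way, from 589 CPM in the shallowest to 349 CPM in the deepest control cells, and its log2 ratio between libraries went from -0.77 under 5000 UMIs to -0.12 above 20000.

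**Figure D5:**
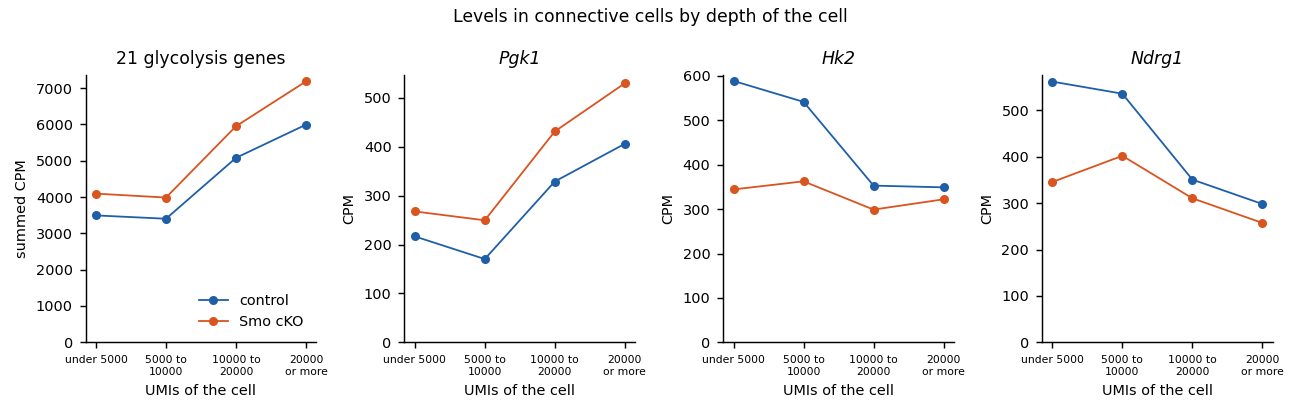
Summed CPM of the 21 glycolysis genes and CPM of *Pgk1*, *Hk2* and *Ndrg1* (y axes from 0) in connective cells of control (blue) and *Smo* cKO (orange) by UMIs of the cell (x axis, 4 bins). The glycolysis sum and *Pgk1* are higher in the 2 bins above 10000 UMIs than in the 2 below and higher in the *Smo* cKO library in each bin, and *Hk2* and *Ndrg1* are higher in the control.

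Within the subclasses, Tnc/Inhba cells gave a log2 ratio of the sum close to that of all connective cells. The sum over the 37 genes was 8815 and 10492 CPM (0.25), and none of 20 genes was 1.5-fold higher (background 2.91%) or lower (0.66%). At 1.25-fold, 6 were higher there (6.56%) and none lower (4.07%). *Hk2* and *Ndrg1* were nearer to equal in Tnc/Inhba cells, with log2 ratios of -0.08 and -0.14, beside -0.30 and -0.33 in all connective cells. In Sfrp4/Eln cells the sum was 4790 and 5122 CPM (0.10), with *Pgk1* and *Eno1* at least 1.5-fold higher (10.3%) and *Hk2* at least 1.5-fold lower (1.76%) of 19 tested. With 200 to 2000 detected genes (453 and 132 cells) the log2 ratio of this sum turned to -0.04 (interval -0.10 to 0.03), with 1 gene higher (15.7%) and none lower (3.64%) of 18, so that the *Hk2* call was lost. Of the 7 connective graph clusters with over 1 control cell, 6 had a higher sum of the 37 genes in the *Smo* cKO library. Counted by gene, 28 were above and 9 below a log2 ratio of 0 in the cluster led by *Eln*. In the others of the 6 the counts were 23 and 13 (led by *Gzme*), 25 and 12 (*Ibsp*), 20 and 17 (*Mmp13*), 19 and 18 (*Aldh1a3*) and 13 and 22 (*Cfd*). In the cluster led by *Aldh1a3*, 5 of the 16 hypoxia genes were above 0 and 11 below. In the cluster led by *Gzme* and *Gzmd* (300 and 1384 cells) the 21 glycolysis genes were at 5745 and 8274 CPM, in the cluster led by *Ibsp* and *Bglap* (770 and 470 cells) at 5428 and 7192 CPM, and in the cluster led by *Aldh1a3* and *Inhba* (1838 and 769 cells) at 6508 and 7509 CPM. In the cluster with *Fmod* and *Tnmd* among its leading genes (630 and 1046 cells) the order was the opposite, at 4304 and 4004 CPM for glycolysis and 2645 and 2225 CPM for the hypoxia genes (log2 -0.10 and -0.25). The part that the makeup of the connective cells plays in the ratio over all of them was not tested.

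In macrophage or monocyte cells the 37 genes summed to 5799 and 6336 CPM (log2 0.13), and none of 22 tested was 1.5-fold higher (background 3.64%) or lower (2.91%). Over all 37 genes, 17 were above 0 and 20 below, with a median of -0.05. Of the 16 hypoxia genes 5 were above 0 and 11 below, so the higher sum did not stand for most genes. With classes from clusters the log2 ratio of the sum was 0.08, and the median of the tested genes was -0.01 instead of 0.08, with 9 of 21 above 0. *Eno1* (171 and 235 CPM) and *Aldoa* (419 and 543 CPM) had the highest log2 ratios of those tested, 0.46 and 0.37, and *Mxi1* (-0.43), *Ndrg1* (-0.39) and *Hif1a* (-0.36) the lowest. At 1.25-fold, *Eno1*, *Aldoa* and *Ddit4* were higher (background 9.59%) and those 3 lower (15.2%). In cells of under 2000, 2000 to 5000 and at least 5000 UMIs the log2 ratio of the sum was 0.14, 0.17 and -0.05, so that it turned in the deepest cells (108 and 323). In neutrophils the hypoxia genes summed to 1662 and 1129 CPM (log2 -0.56), and in neutrophil clusters to 2041 and 1726 CPM (-0.24). *Kdm3a*, *Hk2*, *Slc2a3*, *Ero1l* and *Hif1a* were at least 1.5-fold lower of 22 tested (background 23%) and *Aldoa* at least 1.5-fold higher (15.2%), so that the share of genes on either side was close to or under that of all genes. *Kdm3a* and *Hk2* were under 50 CPM in the *Smo* cKO neutrophils. In endothelial cells *Slc2a1*, *Ankrd37* and *Egln3* were at least 1.5-fold lower of 23 tested (3.88%) and none was higher (6.2%), on 79 and 86 cells. All 3 were under 50 CPM in the *Smo* cKO library and so passed only through the control. In Arg1/Spp1 macrophages no gene of 21 was past 1.5-fold (background 4.87% higher and 3.71% lower). In C1q/Mrc1 macrophages *Slc2a1*, *Ndrg1* and *Mxi1* were at least 1.5-fold lower of 19 (12%) and none higher (7.37%), of which *Slc2a1* was under 50 CPM in the *Smo* cKO library. In the T or NK cluster *Bnip3l* was higher (12%) and *Slc2a1* and *Pfkp* lower (9.71%) of 20, and in the mural cluster *Hk1* was higher (10.4%) and *Slc16a3* lower (6.65%) of 24. All of these but *Bnip3l* were under 50 CPM in the library with the lower level. Osteoclasts (6.4% and 1.42% of all genes higher and lower) and muscle cells (4.22% and 3.78%) had no gene of the list past 1.5-fold.

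The rest of the pathway showed how far the list stands for it. Of 24 other glycolysis genes, such as *Hk3*, *Ldhb* and *Eno3*, none reached 50 CPM in connective cells. Of 34 other hypoxia-response genes, 17 reached 50 CPM in connective cells, 11 of them above and 6 below a log2 ratio of 0, and *Ndufa4l2*, a mitochondrial HIF target, was the one past 1.5-fold, at 38.1 and 98.8 CPM (log2 1.37), and it reached 50 CPM through the *Smo* cKO library only. It was at 37.5 and 109 CPM in Tnc/Inhba cells. *Angptl4* (126 and 183 CPM), *Tmem45a* (74.0 and 108 CPM) and *Hilpda* (171 and 234 CPM) had log2 ratios of 0.54, 0.54 and 0.45, and *Hmox1*, heme oxygenase, had -0.55 (329 and 226 CPM). These 4 were chosen after their values were seen. The angiogenic factor *Vegfa*, the best known HIF target, was at 102 and 105 CPM in connective cells. Of the 20 TCA cycle and respiration genes 13 reached 50 CPM, with log2 ratios from -0.15 to 0.31 and a median of 0.19.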

How the data were processed

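Per the labels, callus cells of 3 animals per genotype were digested, freed of dead cells, pooled and run on the 10x Chromium platform. The authors aligned reads to mm10 with Cell Ranger 3.0.2, and the deposited values are raw UMI counts per gene and barcode that were not normalized. Whether the tags are from the 3′ or 5′ end is not given in the sources used here.

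Rows with the same symbol were summed. Cells with 200 or more detected genes and under 10% of UMIs on 13 mt- genes were kept. A cell joined the class with the most detected markers of 8, at least 3 and leading by 2 or more. Subclasses used 6 markers in the same way. Near this limit, 723 control and 826 *Smo* cKO cells led by exactly 2, and 493 and 538 were left out with a lead of 1. UMIs were summed per class and library and divided by all UMIs of those cells (CPM). Intervals are exact Poisson, or conditional binomial for ratios and Clopper-Pearson for shares, at 95%, and cover counting error only. Cells are not replicates, so no p-value is given. Genes at 50 CPM or more in at least 1 of the compared groups were counted at a fold of 1.5, beside the share of all genes past it. All 37 genes are named. Other pathway genes were to be named where they pass 1.5-fold in connective cells, and some that do not, such as *Hmox1* and *Vegfa*, were added. The members, lists and rules were chosen with earlier results of these data known. Clusters (25) used 2000 variable genes without the 37, 30 components and 20 neighbors, at resolution 0.8 (scanpy 1.11.5, leidenalg 0.10.2). Counting was tested on simulated data. Python 3.11.15, numpy 2.4.6, scipy 1.17.1 and pandas 2.3.3 were used, with RefSeq promoters of GRCm38.p6.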

Additional observations from a re-analysis of the deposited data

How the results depend on the processing

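No paired analysis was possible because each genotype is 1 library, so leaving out a replicate was not possible either. The log2 ratio of the 37 summed genes in connective cells, 0.26, was 0.19 with 200 to 2000 detected genes, 0.28 with classes from clusters, 0.27 without the highest Scrublet scores, 0.25 without the shared barcodes (added after the data were seen), 0.21 when scaled by the median gene and 0.25 with cells weighted equally. With 200 to 2000 detected genes, a limit that leaves out 58.0% and 59.4% of cells, 5 genes were 1.5-fold higher in *Smo* cKO connective cells (background 13.1%) and 1 lower (3.39%), and with cells weighted equally 1 was higher. At 1.25-fold, added after the data were seen, the counts were 7 and 1. Summed lower glycolysis in control connective cells, 3257 CPM, was 1638 with 200 to 2000 genes, 3236 with the strict gate, 3298 without the highest Scrublet scores and 3206 without the shared barcodes. The log2 ratio of connective over macrophage or monocyte cells, 0.40, turned to -0.14 with 200 to 2000 genes, and was 0.48 with the strict gate and 0.35 with clusters. 1 gene instead of 2 was lower in Tnc/Inhba than Sfrp4/Eln cells with 200 to 2000 genes. The share of control connective cells with *Hk2* was 49.2% at 2000 UMIs instead of 30.6% at 1000. Of the 37 genes, 25 kept the sign of their connective ratio in each alternative for it (17 higher, 8 lower) and 12 changed it in at least 1, among them *Slc2a1*, *Hif1a* and *Bnip3*. The causes were not tested. The Scrublet scores come from the doublet caller taken not to have worked, so leaving out the highest cannot show what doublets do to these values.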

Other observations

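A cluster that no marker list named, with *Hbb-bt* and *Alas2* among its leading genes (73 control and 352 *Smo* cKO cells), had *Bnip3l*, the receptor through which maturing red cells remove mitochondria, at 137 and 187 CPM, against 101 and 99.0 CPM in connective cells. Its 21 glycolysis genes summed to 3986 and 4432 CPM, and its *Hk2* was at 412 and 198 CPM. The median depth of its cells was 9723 and 4148 UMIs, so the 2 libraries did not give like cells there. In the cluster led by *Cfd* and *Cxcl12* (840 and 91 cells) *Hk2* was at 584 and 329 CPM and *Ndrg1* at 427 and 250 CPM. Glycolysis was at 3606 and 3850 CPM there. Median depth in that cluster was 9020 and 13339 UMIs, and the part of depth was not tested in either cluster. *Hmox1* was at 2532 and 2202 CPM in macrophage or monocyte cells, and *Hilpda* at 241 and 329 CPM. These values are given without a test.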
